A study of Mus musculus with 12 samples.

Results

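Potassium channel genes were followed in RNA-seq of the hippocampus of mice that had received a fecal microbiota transplant. Genes were chosen by symbol alone: each gene whose symbol begins with Kcn and further lower-case letters was taken, and symbols ending in Rik, os or -as were left out. This gave 95 of the 27978 genes in the deposited table. By symbol, 40 of them are voltage-gated alpha subunits (Kv alpha), 13 auxiliary subunits of voltage-gated channels, 15 inward rectifiers, 12 two-pore channels, 12 calcium- or sodium-activated channels and their subunits, and 3 non-coding genes (Kcnmb4os1, Kcnmb4os2 and Kcnq1ot1). There were 12 libraries, 4 from each of the groups FMT-CON, FMT-DSS and FMT-SP; all 3 groups were transplanted. The series' design text calls the third group FMT-DSS+SP, and its title names substance P, a neuropeptide. The labels do not spell out CON or DSS, and give neither strain, age and sex of the mice nor the time and route of substance P. They also do not say whether a library is 1 mouse or a pool, so the p-values below measure only the spread between these libraries, which may be technical. Levels are FPKM, fragments scaled to transcript length and library total, which allow levels of different genes to be set side by side per length.

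Potassium channels let potassium ions leave or enter a cell and thereby set its resting potential and the shape and rate of its action potentials. Kv channels open on depolarization: Kv1, Kv2, Kv3, Kv4, Kv7 and the ether-a-go-go (Kcnh) groups differ in speed and place in the neuron, and electrically silent subunits (Kcnf, Kcng, Kcns, Kcnv) form channels only together with Kv2 partners. Inward rectifiers (Kir) hold the resting potential, answer G-protein-coupled receptors in neurons and take up potassium in astrocytes. Two-pore channels carry leak current, and calcium- or sodium-activated channels (BK, SK, Slack) open when these ions enter the cell. In the hippocampus Kv4 channels with their KChIP partners restrain back-propagating action potentials in dendrites, Kv7 channels carry the M current, and Kv3 channels serve fast-spiking interneurons.

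Hippocampal markers were present in all 12 libraries, but the libraries were not alike. The summed FPKM of 5 general neuron markers ran from 1371 to 1728 over the 12 libraries, of 5 CA1 pyramidal cell markers from 100.8 to 239.0, and of 5 dentate granule cell markers from 29.0 to 59.0. Markers of neighbouring tissue varied more: 6 choroid plexus markers summed to 18.1 FPKM in the lowest library and 3826 in the highest, 5 thalamus markers to 13.5 and 170.0, 9 striatum markers to 68.5 and 411, and 4 pituitary markers to 2.04 and 3581. The 3 libraries numbered 4 in the titles held more mitochondrial RNA: 13 genes of that genome took 24.0% to 29.0% of all FPKM there and 15.9% to 20.3% in the remaining libraries. From the spacing of low values, depth was estimated at 31.5 to 37.1 M fragments a library (M, 1000000), although only 34.5% to 37.2% of those values were whole within 0.05 of a fragment.

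Together the 95 genes summed to 573 to 723 FPKM per library. Kv alpha subunits gave 41.4% of that sum on average, auxiliary subunits 27.8%, inward rectifiers 14.1%, calcium- or sodium-activated channels 9.91%, two-pore channels 6.44% and the non-coding genes 0.309%. A mean of at least 10 FPKM was reached by 24 genes and a mean of 1 to 10 FPKM by 43. These 67 genes passed the filter for testing. The other 28 did not, 18 of them with a mean of 0.1 to 1 FPKM and 10 with a lower one.

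**Figure D1:**
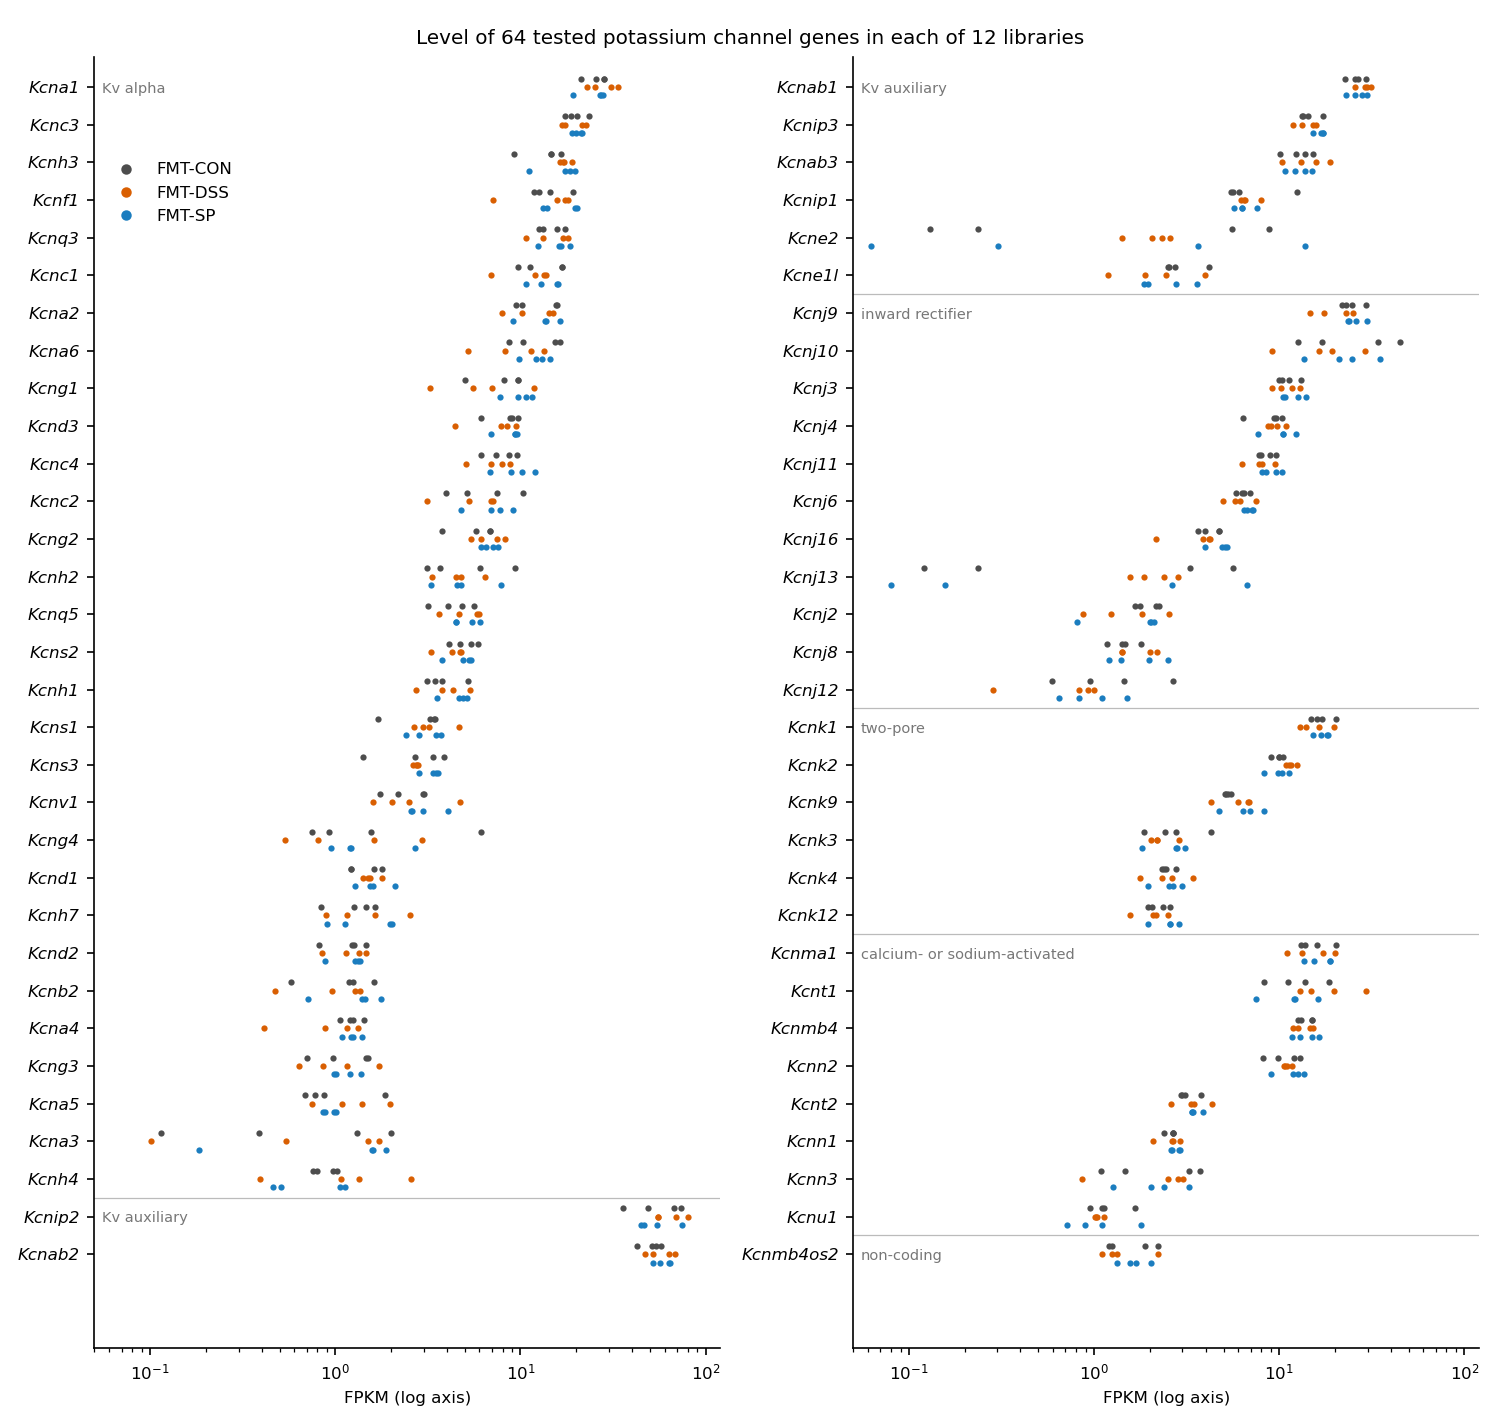
FPKM (log axis) of 64 of the 67 tested genes, 1 point per library, coloured by group and ordered by family and mean level. Most rows are compact and the groups interleave; Kcne2 and Kcnj13 spread over 222-fold and 83.4-fold, and the highest rows are Kcnip2 and Kcnab2.

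Among Kv alpha subunits Kcna1, the Kv1.1 subunit of axons, had a mean of 26.5 FPKM. Its levels were 28.2, 28.2, 25.5 and 21.1 FPKM in FMT-CON 1 to 4, 30.8, 33.8, 23.00 and 25.3 in FMT-DSS 1 to 4, and 27.4, 28.1, 26.7 and 19.3 in FMT-SP 1 to 4. FMT-SP 4 was the lowest library and FMT-DSS 2 the highest. By subgroup, the sums averaged over the libraries were 53.9 FPKM for 8 Kv1 genes, 47.6 for 4 Kv3 genes, 46.6 for 10 silent subunits, 28.7 for 8 Kcnh genes and 11.0 for 3 Kv4 genes. The Kv4 alpha subunits were thus low beside their KChIP partners, whose 4 genes summed to 81.3 FPKM.

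The auxiliary subunits held the 2 highest mean levels of the 95 genes. Kcnip2, which encodes the Kv4 partner KChIP2, had a median of 55.4 FPKM, with 35.96 in FMT-CON 1 and 79.8 in FMT-DSS 3. Kcnab2, a beta subunit of Kv1 channels, had a median of 55.2, again lowest in FMT-CON 1 (42.8) and highest in FMT-DSS 2 (67.99). Their medians differ by less than either gene's range over the libraries. The related Kcnab1 varied least of all tested members, from 22.6 to 31.4 FPKM, a ratio of 1.39, and was picked for that after its values were seen.

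Among inward rectifiers, Kcnj9 (the G-protein-gated Kir3.3) and Kcnj10 (the astrocyte channel Kir4.1) had nearly equal means, 23.5 and 23.1 FPKM, and unequal spreads, with ratios of highest to lowest library of 2.02 and 4.94. Kcnk1 (TWIK-1) and Kcnk2 (TREK-1) led the two-pore channels at 16.7 and 10.5 FPKM. Kcnma1, the pore subunit of the BK channel, and Kcnt1, the sodium-activated Slack channel, led the last family at 15.9 and 14.7. Over all 67 tested genes the ratio of the highest to the lowest library had a median of 2.17, against 1.73 over all tested genes without a 0. It was above 3-fold in 17 members and below 2-fold in 28.

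The groups were then compared on log2(FPKM + 1) with limma, 12 libraries in 1 fit, with p-values adjusted over all 12559 tested genes. Changes are given on that scale with their standard error, and they understate the fold of genes with low FPKM. The 3 comparisons share libraries with one another, so their values are set side by side and are not independent. No member passed an adjusted p of 0.05 in any of them, and neither did any other gene (0% called in each comparison). For most members the data bound the change: the 95% interval had a median half-width of 0.38 and lay within ±1 for 62 of 67 members in FMT-DSS against FMT-CON, 61 in FMT-SP against FMT-DSS and 63 in the third. The widest intervals were those of Kcne2 and Kcnj13.

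FMT-DSS against FMT-CON compares the FMT-DSS transplant with the FMT-CON transplant. Limma called 0 of 67 members at an adjusted p under 0.05 (smallest 0.966) and 0 at an unadjusted p under 0.05, against 4.06% of all tested genes at the latter. The median change was -0.02 for members and -0.03 for all tested genes, and 29 members (43.3%) were higher in FMT-DSS, against 40.3% of all genes. After median-ratio rescaling 53.7% of members were higher, so the split of directions depends on the scaling. The groups did not overlap in 1 member, against 1.75% of all tested genes.

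That member was Kcnk2, the mechanically and lipid gated leak channel TREK-1. Its levels were 9.03, 10.5, 9.99 and 10.01 FPKM in FMT-CON 1 to 4, 11.6, 11.2, 12.5 and 10.9 in FMT-DSS 1 to 4, and 11.3, 10.3, 8.26 and 9.80 in FMT-SP 1 to 4. All 4 FMT-DSS libraries were above all 4 FMT-CON libraries, and the FMT-SP libraries ran from below to within the FMT-DSS range. The means of FMT-DSS and FMT-CON were 11.5 ± 0.672 and 9.89 ± 0.627 FPKM (SD, n = 4 each), a change of 0.20 ± 0.10 (limma, unadjusted p = 0.0587, adjusted p = 0.966). FMT-SP against FMT-DSS gave -0.21 ± 0.10, which was -0.13 without FMT-SP 3. An antisense gene, A430027H14Rik, shares 12.2% of the exon bases of Kcnk2 in GENCODE, and the strand setting of the counting is not given in the sources used here, so reads of the pair may be mixed.

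Kcnt1 had the largest positive change in this comparison. Its levels were 13.7, 8.27, 11.2 and 18.7 FPKM in FMT-CON 1 to 4, 12.96, 14.8, 19.6 and 29.2 in FMT-DSS 1 to 4, and 12.03, 12.2, 7.49 and 16.2 in FMT-SP 1 to 4. FMT-DSS 4 was highest, and in each group the library numbered 4 was the highest of its 4. The change was 0.52 ± 0.28 in FMT-DSS against FMT-CON (limma, adjusted p = 0.966) and -0.61 ± 0.28 in FMT-SP against FMT-DSS (adjusted p = 0.999). Without FMT-DSS 4 these were 0.30 and -0.40.

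The other members of smallest p in FMT-DSS against FMT-CON were an ether-a-go-go channel, a pair of inward rectifiers and a Kv1 subunit, none of which passed. Kcnh3 had a change of 0.35 ± 0.19, with 13.7 ± 3.17 FPKM in FMT-CON and 17.4 ± 1.09 in FMT-DSS, and of 0.18 without FMT-CON 1, where it was at 9.17. Kcnj9 had a change of -0.31 ± 0.15, and of -0.04 without its lowest libraries, FMT-DSS 2 and FMT-DSS 4. Kcnj12 (Kir2.2) had a change of -0.41 ± 0.24, with 2.68 FPKM in FMT-CON 1, 0.285 in FMT-DSS 4 and 0.594 to 1.51 in the other 10. Kcna6 (Kv1.6) had a change of -0.40 ± 0.25, and of 0.01 without its lowest libraries, FMT-DSS 2 and 4, where it was at 8.25 and 5.22. Gm26673, an antisense gene, shares 39.6% of the Kcna6 exon bases.

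FMT-SP against FMT-DSS compares the group with substance P in its name with the FMT-DSS group. Limma called 0 of 67 members at an adjusted p under 0.05 (smallest 0.999). At an unadjusted p under 0.05 there were 3 members (4.48%), against 2.5% of all tested genes: Kcnj9, Kcnj16 and Kcnip3, all higher in FMT-SP. With the replicate number as a block, the count was 7 members (10.4%), 6 of them higher, against 7.05% of all tested genes, and 0 passed adjustment (limma, smallest adjusted p = 0.672). Same-numbered libraries of these 2 groups met the criterion of pairing. The block was fitted over all 12 libraries, however, and so drew also on FMT-CON, which did not meet it with either group. The median change was 0.08 for members and 0.03 for all tested genes, and 52 of 67 members (77.6%) were higher, against 58.9% of all genes; with median-ratio rescaling it was 73.1% of members. By family, 27 of 33 Kv alpha, 9 of 11 inward rectifier, 5 of 6 two-pore, 6 of 8 calcium- or sodium-activated and 4 of 8 auxiliary genes were higher. FMT-DSS 4 was the lowest of the 12 libraries for 32 of the 67 members (47.8%), against 28.0% of all tested genes, and its part in these directions was not tested beyond the values without it.

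Kcnj9 had the smallest p of this comparison. Its levels were 29.4, 24.8, 21.7 and 23.03 FPKM in FMT-CON 1 to 4, 25.00, 14.7, 22.9 and 17.4 in FMT-DSS 1 to 4, and 25.8, 29.6, 23.5 and 23.9 in FMT-SP 1 to 4. FMT-DSS 2 and 4 were the lowest of the 12, while FMT-DSS 1 and 3 lay within the range of the FMT-CON libraries. Microglia markers were also lowest in FMT-DSS 2 and 4, 0.91 below the average library on the log2 scale, and their part in the result was not tested. The change was 0.37 ± 0.15 (95% interval 0.03 to 0.70, limma, unadjusted p = 0.0344, adjusted p = 0.999), and 0.09 without FMT-DSS 2 and 4. Leaving out the lowest FMT-DSS libraries had to shrink it, so that value shows only how far the change rested on them. Kcnj16, the Kir5.1 subunit that pairs with Kir4.1, was at 4.16, 3.88, 4.21 and 2.17 FPKM in FMT-DSS 1 to 4 and 5.25, 5.10, 4.90 and 3.98 in FMT-SP 1 to 4. The groups overlapped through FMT-SP 4, and the change of 0.36 ± 0.16 (adjusted p = 0.999) was 0.16 without FMT-DSS 2 and 4. For Kcnj16 too these were the lowest FMT-DSS libraries. Kcnip3, which encodes KChIP3 (also known as calsenilin), was at 15.2, 15.7, 13.3 and 11.8 and 16.9, 17.3, 15.2 and 17.2 FPKM, a change of 0.24 ± 0.11 (limma, adjusted p = 0.999). For Kcnip3, FMT-DSS 2 was the highest of its group, and the change without FMT-DSS 2 and 4 is not given.

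Kcns3, a silent Kv subunit, was the 1 member whose groups did not overlap here (1.49% of members, against 1.27% of all tested genes). Its levels were 1.41, 2.68, 3.38 and 3.87 FPKM in FMT-CON 1 to 4, 2.78, 2.75, 2.71 and 2.63 in FMT-DSS 1 to 4, and 3.51, 3.60, 2.82 and 3.37 in FMT-SP 1 to 4. The FMT-DSS libraries were the most alike, and the FMT-CON libraries spread across and beyond both other groups. The change was 0.22 ± 0.18 (limma, adjusted p = 0.999), and 0.05 once the mean levels of choroid plexus and striatum markers entered the model. The remaining member of the 6 smallest p was the silent subunit Kcng1, at 6.98, 5.53, 11.8 and 3.25 FPKM in FMT-DSS and 9.67, 11.6, 7.78 and 10.7 in FMT-SP. Its change was 0.57 ± 0.29, and 0.10 without FMT-DSS 2 and 4, the lowest of their group.

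The comparison of FMT-SP with FMT-CON had the fewest differences. Limma called 0 of 67 members at an adjusted p under 0.05 (smallest 1, rounded) and 0 at an unadjusted p under 0.05, against 0.358% of all tested genes, and in 0 members did the groups not overlap, against 0.494%. The median change was 0.06 for members and -0.01 for all tested genes, with 48 members (71.6%) higher in FMT-SP, against 46.7% of all genes. The members of smallest p were Kcnip3 (0.19 ± 0.11), the acid-sensitive leak channel Kcnk9 (TASK-3, 0.25 ± 0.16), Kcnab2 (0.20 ± 0.13), Kcnh3 (0.26 ± 0.19), the silent Kcng2 (0.23 ± 0.17) and Kcns3 (0.22 ± 0.18). Leaving out FMT-CON 1 brought Kcnab2 to 0.12, Kcnh3 to 0.09, Kcng2 to 0.07 and Kcns3 to 0.01. In FMT-CON 1 these 4 genes were at their lowest values of all libraries, and thalamus and choroid plexus markers were high there. CA1 pyramidal cell and interneuron markers had their lowest means there, at -0.70 and -0.30 on the log2 scale relative to the average library. Oligodendrocyte and ependyma markers had their highest (0.79 and 1.14). With choroid plexus and striatum marker levels as covariates the 4 changes were 0.15, 0.20, 0.13 and 0.16. The part of thalamus and of the other marker lists was not tested.

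**Figure D2:**
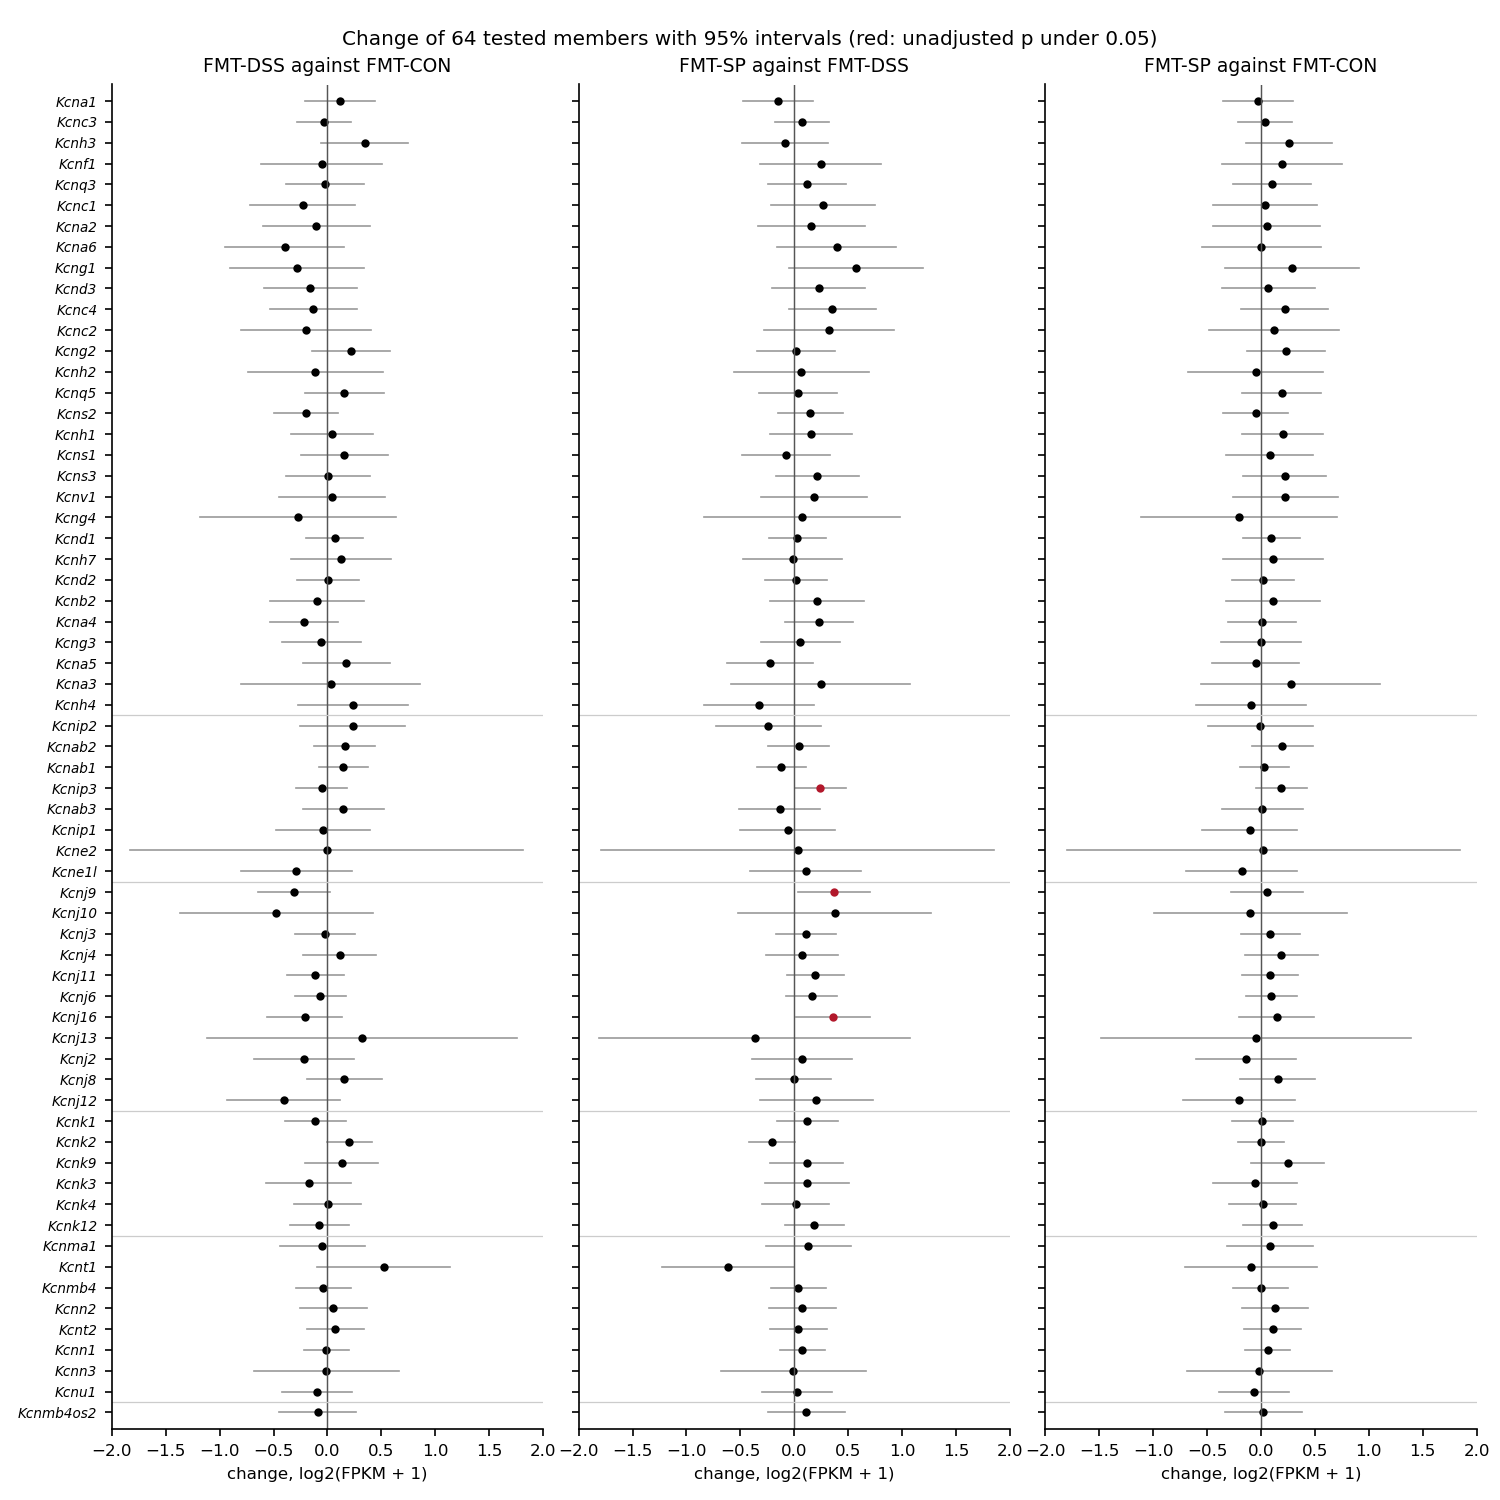
Change of 64 of the 67 tested members on the log2(FPKM + 1) scale (points) with 95% intervals (lines), in the order of families used for the levels, 1 panel per comparison. Red marks the 3 members at an unadjusted p under 0.05, Kcnip3, Kcnj9 and Kcnj16 in FMT-SP against FMT-DSS, and Kcne2 and Kcnj13 have the longest lines.

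The 2 most variable members belong to choroid plexus, the epithelium that makes cerebrospinal fluid. Kcne2 encodes a single-span subunit that works with Kv7.1 and Kv1 channels in the apical membrane of that epithelium, and Kcnj13 encodes its inward rectifier Kir7.1. Because they varied together over the libraries, the 250 bases before the annotated start of each gene are shown, from RefSeq (GRCm38.p6), at chr16:92292139-92292388 on the plus strand for Kcne2 and chr1:87394730-87394979 on the minus strand for Kcnj13. Capitals mark matches on either strand to the TATA box letters TATAAA and the CCAAT box letters CCAAT.
Kcne2: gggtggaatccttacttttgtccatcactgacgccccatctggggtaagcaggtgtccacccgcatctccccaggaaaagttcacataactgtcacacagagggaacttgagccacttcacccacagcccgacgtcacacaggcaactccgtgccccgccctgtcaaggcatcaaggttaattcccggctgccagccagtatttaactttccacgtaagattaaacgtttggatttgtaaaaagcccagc
Kcnj13: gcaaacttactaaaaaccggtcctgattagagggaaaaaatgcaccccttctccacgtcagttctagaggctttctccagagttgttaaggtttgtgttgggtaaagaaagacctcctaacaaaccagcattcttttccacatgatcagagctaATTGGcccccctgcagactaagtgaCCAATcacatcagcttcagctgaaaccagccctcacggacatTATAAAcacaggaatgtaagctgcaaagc
Kcnj13 has TATAAA with its first base 29 bases before the start, and CCAAT 71 bases before it and, on the other strand, 96 bases before it. Kcne2 has neither set of letters in this window, and neither gene has TAATCC, the core recognised by the choroid plexus factor Otx2. Of 27025 genes with such a window, 12.98% hold TATAAA, 34.5% CCAAT and 6.37% TAATCC. Of the 95 potassium channel genes, 69 were matched there by symbol, and 2, 21 and 2 of these hold the letters. These matches describe letters only. The exons of Kcnj13 also share 49.1% of their bases with Gigyf2 on the opposite strand, so its FPKM may hold reads of that gene.

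Kcne2 was at 8.77, 5.57, 0.235 and 0.130 FPKM in FMT-CON 1 to 4, 2.33, 2.56, 2.06 and 1.41 in FMT-DSS 1 to 4, and 0.0624, 3.64, 13.8 and 0.302 in FMT-SP 1 to 4. Kcnj13 was at 5.65, 3.29, 0.236 and 0.120 FPKM in FMT-CON 1 to 4, 2.397, 2.85, 1.56 and 1.86 in FMT-DSS 1 to 4, and 0.0799, 2.63, 6.66 and 0.157 in FMT-SP 1 to 4. Both genes were highest in FMT-SP 3, then FMT-CON 1 and FMT-CON 2, and both were at or below 0.302 FPKM in the same 4 libraries, FMT-CON 3 and 4 and FMT-SP 1 and 4. The marker transthyretin (Ttr) was at 3779, 3561 and 2017 FPKM in the first 3 of these and at 14.7 to 83.5 in the 4 low ones. Summed over the 6 choroid plexus markers the range was 30.6 to 3601 FPKM in FMT-CON, 1304 to 2924 in FMT-DSS and 18.1 to 3826 in FMT-SP. In bulk tissue, fewer cells of a type and less RNA per cell cannot be told apart.

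The mean changes of both genes were accordingly unresolved. Kcne2 had changes of -0.01 ± 0.84 in FMT-DSS against FMT-CON and 0.03 ± 0.84 in FMT-SP against FMT-DSS, and Kcnj13 of 0.32 ± 0.66 and -0.37 ± 0.66. With the mean choroid plexus and striatum marker levels as covariates, Kcne2 became the 1 member called in FMT-SP against FMT-DSS, at 1.14 ± 0.16 (limma, adjusted p = 0.030), 1 of 11 genes called among all those tested. That fit is a straight line on log2(FPKM + 1), and Kcne2 was at 0.0624 to 0.302 FPKM in 4 libraries of FMT-CON and FMT-SP. There the choroid plexus mean was -1.92 to -1.18, against 0.16 to 1.47 in FMT-DSS. Whether a straight line holds over that range was not tested. Relative to Ttr, chosen for this after the values were seen, Kcne2 was at 2.46, 2.76, 2.81 and 4.76 in FMT-CON 1 to 4, 1.30, 0.890, 1.60 and 0.611 in FMT-DSS 1 to 4, and 4.24, 1.98, 3.66 and 5.84 in FMT-SP 1 to 4 (FPKM per 1000 FPKM of Ttr). Each FMT-DSS library was below each library of the other groups in that ratio. For Kcnj13 the same ratio was 1.59, 1.63, 2.82 and 4.404 in FMT-CON 1 to 4, 1.33, 0.990, 1.21 and 0.808 in FMT-DSS 1 to 4, and 5.43, 1.43, 1.76 and 3.05 in FMT-SP 1 to 4, also lowest in the 4 FMT-DSS libraries. Relative to the marker Folr1 the groups overlapped: Kcne2 per Folr1 was 0.271 to 1.23 in FMT-DSS, 0.481 to 2.03 in FMT-CON and 0.335 to 1.92 in FMT-SP. The ratios carry no test, and they differ with the marker used.

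**Figure D3:**
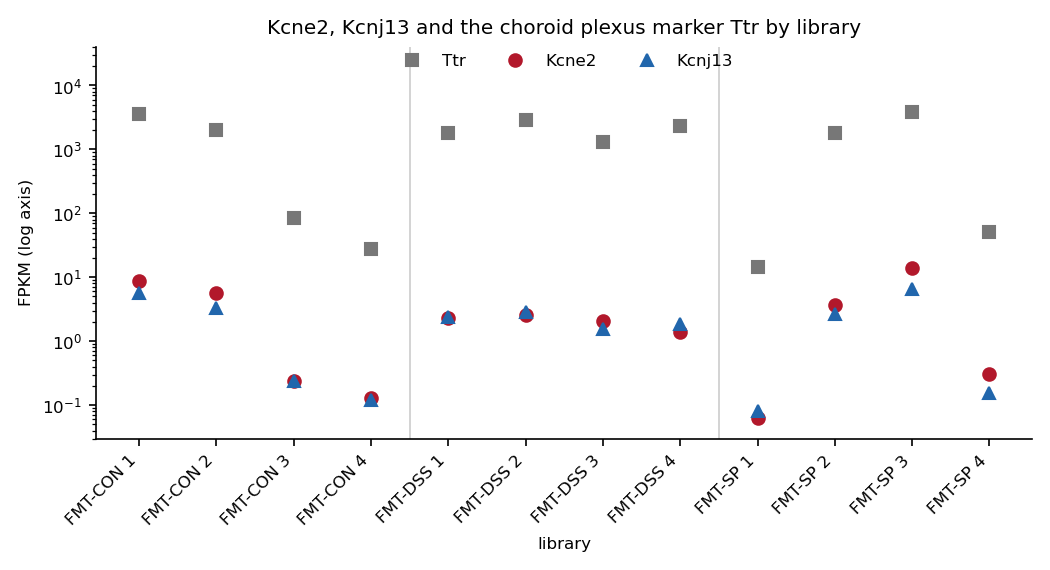
FPKM (log axis) of Kcne2, Kcnj13 and the choroid plexus marker Ttr in each library, with lines between the groups. All 3 genes are low in FMT-CON 3 and 4 and FMT-SP 1 and 4, and the 4 FMT-DSS libraries are intermediate to high, at 1.41 to 2.56 FPKM for Kcne2 and 1.56 to 2.85 for Kcnj13.

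Some members peaked in libraries where markers of another tissue were highest. Kcng4, a silent subunit, was at 6.14, 1.57, 0.924 and 0.752 FPKM in FMT-CON 1 to 4, 1.62, 2.95, 0.810 and 0.537 in FMT-DSS 1 to 4, and 1.20, 1.21, 2.71 and 0.951 in FMT-SP 1 to 4. FMT-CON 1 stood far above the rest and FMT-SP 3 was high within its group; these 2 libraries had the highest mean of the 5 thalamus markers, 2.05 and 1.17 above the average library on the log2 scale. FMT-DSS 2, second highest for Kcng4, was only 0.14 above it. Choroid plexus markers were highest in FMT-SP 3, FMT-DSS 2 and FMT-CON 1 (1.59, 1.47 and 1.37), the same libraries where Kcng4 was highest. Ependyma markers were highest in FMT-CON 1 and FMT-SP 3 (1.14 and 1.03). Members picked after their values were seen were high in FMT-CON 1 as well: Kcnj5 (Kir3.4) at 1.34 FPKM against 0 to 0.211 in the other 11, Kcnip1 (KChIP1) at 12.4 against 5.49 to 7.99, and Kcnh2 (the ERG channel) at 9.30 against 3.13 to 7.84. Kcnh4, another ether-a-go-go channel, peaked in FMT-DSS 3 at 2.55 FPKM against 0.393 to 1.35 elsewhere, and FMT-DSS 3 had the highest mean of the 9 striatum markers, 1.72 above the average library. In FMT-CON 1, second in striatum markers (0.85), Kcnh4 was at 0.755, below FMT-DSS 4 and FMT-SP 4 (1.07 and 1.13), where these markers were at -0.67 and -0.63. The part of these tissues in the levels was not tested.

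Genes of glia and vessels were followed through the members known from them. Kcnj10 was at 45.1, 34.1, 16.9 and 12.7 FPKM in FMT-CON 1 to 4, 29.01, 16.4, 19.2 and 9.14 in FMT-DSS 1 to 4, and 21.04, 24.8, 34.96 and 13.7 in FMT-SP 1 to 4. FMT-CON 1 was highest and FMT-DSS 4 lowest, and each library numbered 4 was below all 9 others. The mean of 7 astrocyte markers was also lowest in the libraries numbered 4, at -0.39, -0.53 and -0.23 on the log2 scale relative to the average library, against 0.03 to 0.23 in the others. Aqp4, Slc1a2, Slc1a3 and Gja1 were below all other libraries there, but the rest of the list was not. Aldh1l1 was at 13.9, 20.3 and 15.6 FPKM in FMT-CON 4, FMT-DSS 4 and FMT-SP 4, against 12.4 to 22.5 in the others. Gfap and Aldoc overlapped the other libraries too. Kcnk13 (THIK-1), the main resting potassium channel of microglia, had a mean of 0.904 FPKM and was not tested. It was at 1.33, 1.64, 1.06 and 0.603 FPKM in FMT-CON 1 to 4, 0.974, 0.395, 1.04 and 0.285 in FMT-DSS 1 to 4, and 0.662, 0.660, 1.53 and 0.668 in FMT-SP 1 to 4. FMT-DSS 2 and 4 were the lowest, and in them the mean of 8 microglia markers was 0.91 below the average library, against -0.01 to 0.36 in the other 10 libraries. Their summed FPKM was 86.8 to 121.7 in FMT-CON, 53.1 to 116.0 in FMT-DSS and 98.5 to 120.9 in FMT-SP.

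The other such members were low. Kcnk6 (TWIK-2) was at 0.460 to 1.06 FPKM and was not tested. Kcnn4 (the intermediate-conductance channel), also untested, was at 0.0140 to 0.291, a ratio of 20.8, and in FMT-SP it was at 0.0140, 0.0304, 0.276 and 0.0451 in libraries 1 to 4. Kcnj8 (Kir6.1), the pore of the ATP-sensitive channel of pericytes, was at 1.46 ± 0.252, 1.75 ± 0.401 and 1.77 ± 0.591 FPKM in FMT-CON, FMT-DSS and FMT-SP, with changes of 0.16 ± 0.16 and -0.00 ± 0.16 in the first 2 comparisons. The pericyte and smooth muscle markers summed to 49.4 to 80.7 FPKM over the 12 libraries.

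The library number in the titles went with more members than the group did. This comparison was added after the values were seen, and the labels do not say what the number stands for. An F test of the number with group in the limma model called 14 of 67 members at an adjusted p under 0.05 (20.9%), against 22.6% of all tested genes, so the share of members is near the background. Of the 14, 11 were among the 33 Kv alpha genes, including Kcna1, Kcna2, Kcna3, Kcnb2, Kcnc1, Kcnc2, Kcnd3, Kcnh7, Kcnq3 and Kcns2. The others were Kcnab1, Kcnk1 and Kcnma1, and no inward rectifier was called. Kcnj10 and Kcnj16 were just over the threshold (adjusted p = 0.051 and 0.055 in limma's F test), and a difference between families was not tested. Without the 3 libraries numbered 4 the count was 0 of 68 members and 0 of all genes.

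The libraries numbered 4 were the ones apart. All 3 lay below the 9 others in 17 of 67 members (25.4%), against 17.1% of all tested genes, and above them in 2 (2.99%), against 9.05%. Kcna3, the Kv1.3 subunit, showed the largest fold: it was at 1.30, 2.004, 0.385 and 0.115 FPKM in FMT-CON 1 to 4, 1.51, 1.72, 0.544 and 0.101 in FMT-DSS 1 to 4, and 1.57, 1.88, 1.60 and 0.183 in FMT-SP 1 to 4. The libraries numbered 4 averaged 0.133 FPKM and the others 1.39, and FMT-CON 3 and FMT-DSS 3 were the next lowest libraries. Kcnc2 (Kv3.2) averaged 3.95 against 7.34 FPKM, and Kcnd3 (Kv4.3) 5.81 against 9.06, with adjusted p = 0.026 and 0.0093 for the number in limma's F test. Also lower were, among others, Kcna2, Kcnab1, Kcnb2, Kcnc1, Kcnd2, Kcnh2, Kcnh7, Kcnj10, Kcnj12, Kcnk12, Kcnn3, Kcnq3 and Kcns2. Among the 2 that were higher was the non-coding Kcnmb4os2, whose exons overlap those of Kcnmb4 by 693 bases.

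**Figure D4:**
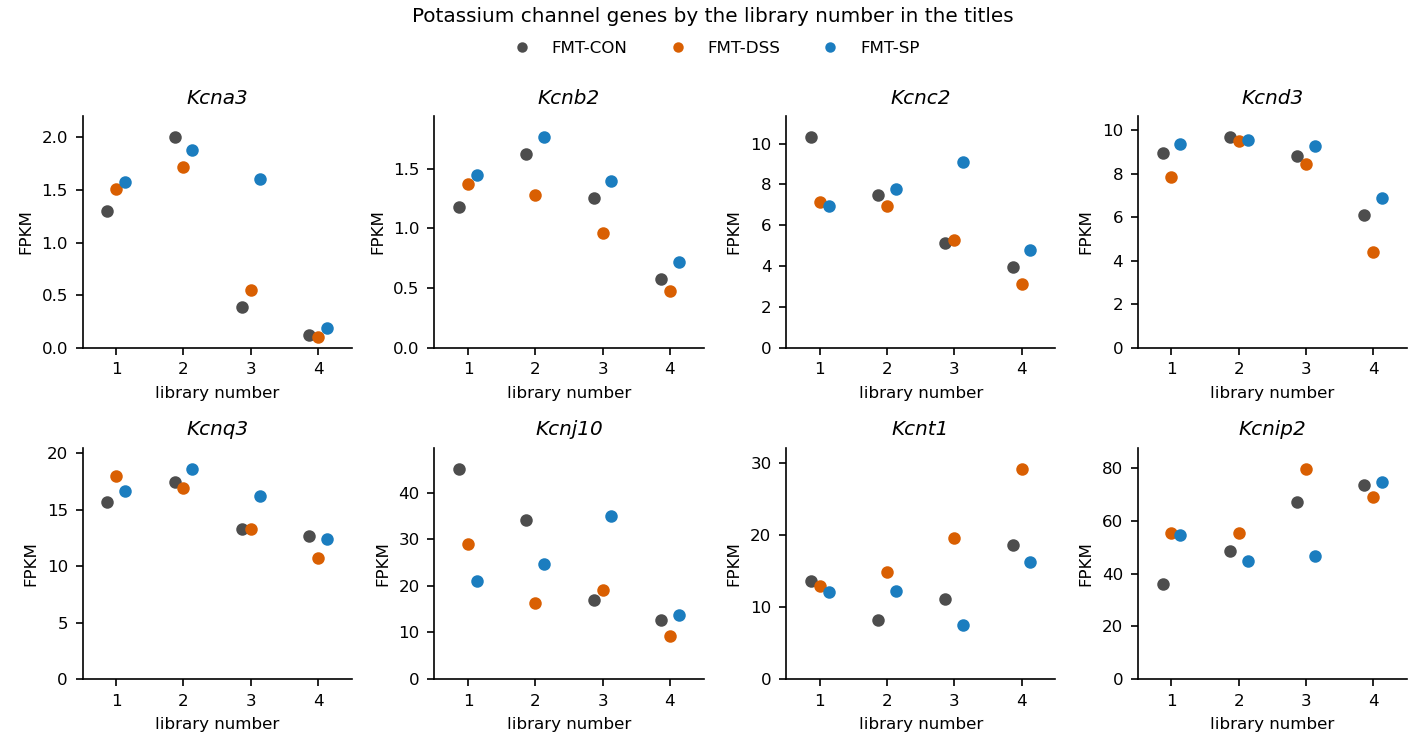
FPKM of 8 members (1 panel each) against the library number in the titles, coloured by group; the number has no stated order or meaning. Kcna3, Kcnb2, Kcnc2, Kcnd3, Kcnq3 and Kcnj10 are lowest in all 3 libraries numbered 4, while Kcnt1 is highest of its group there and Kcnip2 is at 69.1 to 74.8.

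The members lower in these libraries had longer transcripts and a lower share of G and C than the rest. The longest annotated transcript of the 17 had a median of 5456 bases and 48.2% GC, against 3754 bases and 53.9% for the 48 members that did not separate. Over all tested genes the same medians were 4997 bases and 45.8% for those lower, 3167 bases and 50.5% for those not separated, and 2894 bases and 55.3% for those higher. Across the 67 members, which are not independent replicates and share these libraries, Spearman's rho of the difference with transcript length was -0.34 and with GC 0.35. Across 12120 tested genes it was -0.42 and 0.36. The members' median difference was -0.25 on the log2(FPKM + 1) scale with 50 of 67 (74.6%) lower, against -0.06 and 57.4% for all tested genes. Kcna3, at 1902 bases and 60.3% GC, and Kcnt1, higher in the libraries numbered 4 with a longer transcript, did not follow length. Mitochondrial share, length and GC moved with the number, and their part in it was not tested.

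**Figure D5:**
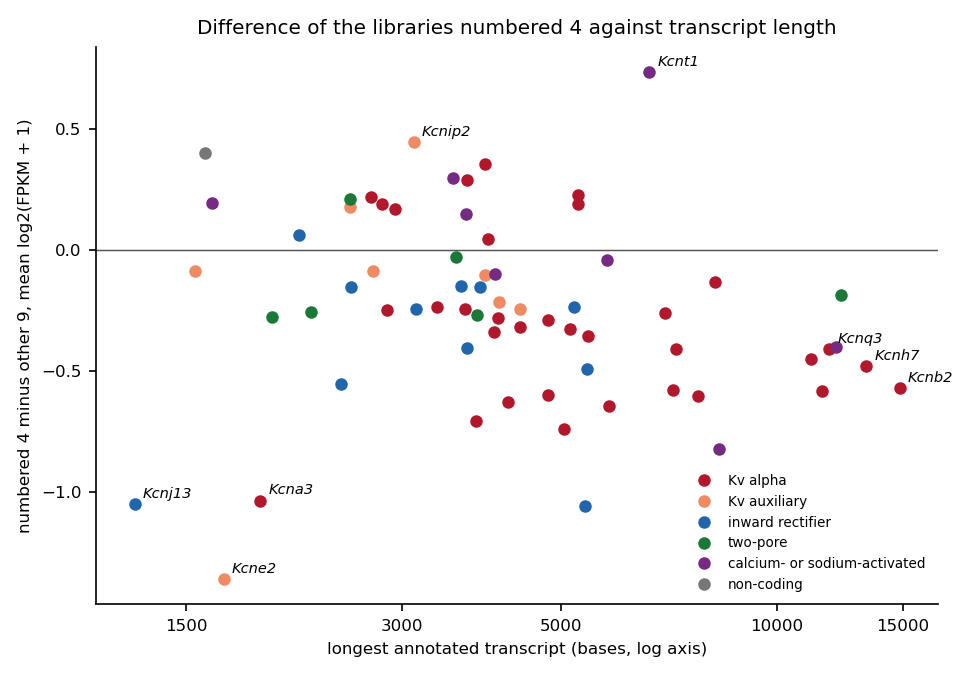
Mean log2(FPKM + 1) in the 3 libraries numbered 4 minus that in the other 9 (vertical axis) against the longest annotated transcript (log axis), 1 point per tested member, coloured by family. Kcnb2, Kcnh7 and Kcnq3, which have long transcripts, lie between -0.57 and -0.41, and the short Kcna3, Kcne2 and Kcnj13 lie at -1.04, -1.36 and -1.05.

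Genes that work with these channels without carrying their name were read from a list of 18, of which 14 were tested and 0 passed in any comparison. Higher and lower were 5 and 9 of them in FMT-DSS against FMT-CON, 12 and 2 in FMT-SP against FMT-DSS, and 9 and 5 in the third. Dpp6, a Kv4 partner, was at 47.7 ± 4.64, 49.7 ± 8.11 and 51.0 ± 5.32 FPKM in FMT-CON, FMT-DSS and FMT-SP. Amigo1, a Kv2 partner, had changes of -0.23 ± 0.13 and 0.22 ± 0.13 in the first 2 comparisons, and Hcn3, a hyperpolarization-activated channel, of -0.31 ± 0.15 and 0.23 ± 0.15. Lrrc55, a BK channel partner, followed FMT-CON 1 as Kcng4 did, at 17.9 FPKM there and 0.532 to 6.25 in the other 11 libraries.

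The filter fell among members of similar level. Just inside were Kcnh4 and Kcnj12, with means of 1.005 and 1.07 FPKM, and just outside were Kcnk13 and Kcnk10, with 0.904 and 0.735. Of the 28 untested members, 10 were listed at 0 in at least 1 library and none in every library. At 1 FPKM a transcript of 2000 bases rests on an estimated 63.0 to 74.2 fragments, and at lower FPKM on fewer. Among tested members the standard error of the change did not follow level alone. On the log2(FPKM + 1) scale it was 0.24 for Kcnh4 and for Kcnj12, and 0.41 for Kcnj10 at a mean of 23.1 FPKM.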

How the data were processed

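Total RNA of mouse hippocampal tissue was sequenced in 12 libraries, 4 per group, grouped by their titles. The authors deposited 1 table of FPKM values per gene. The submitters' processing notes name HISAT2 2.0 and the build mm8 without a role; no source used here states the counter, annotation, strand setting or filters. From the deposited FPKM, log2(FPKM + 1) was computed, the 12559 genes averaging 1 FPKM or more were kept, and the 3 groups were fitted in 1 two-sided model (R 4.3.3, limma 3.58.1, trended empirical Bayes) with Benjamini-Hochberg adjustment over all tested genes (threshold 0.05). The fit was tested on simulated data. Transcript lengths, GC content and overlaps came from GENCODE vM21, in which all 95 members were matched by symbol, and promoter windows from RefSeq. Depth was estimated from 4713 single-transcript genes; too few values were whole for reads to be recovered, so no count test was run.

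The members, lists and tests were chosen with earlier results of these data known. Named genes are the 6 of smallest p per comparison, those whose groups do not overlap, the 2 highest per family, 8 known from other cell types, the 5 of largest ratio between libraries and the 2 nearest the filter on each side; others named were picked after their values were seen. Some members that these rules select are not reported here. Alternatives changed the pseudocount, the filter, the scaling, the groups in the fit, weights, covariates, the replicate block and the libraries included. Where a named gene's change is given without single libraries, these held its extreme values, so a smaller change was fixed in advance. The numbers were taken to pair 2 groups where the deviations from the group means of every same-numbered pair correlated above 0.1 over all tested genes. This held for FMT-SP and FMT-DSS (0.36, 0.35, 0.11 and 0.69 for numbers 1 to 4) and not for the other 2 comparisons; the labels do not say what the number marks. The comparison of library numbers was added after the values were seen, and a contrast of the libraries numbered 4 with the rest was also tried and replaced by the F test over all 4 numbers.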

Additional observations from a re-analysis of the deposited data

Results flagged for a closer look

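Each named gene was examined in each group of 4 libraries for a library whose gap to the nearest other library, divided by the range of the group, exceeded Dixon's 95% critical value for 4 values. Of 84 gene and group pairs, 6 exceeded it. Chance gives about 1 in 20 for genes picked without regard to these values. Some named genes were picked for a large ratio between libraries, Kcng4 among them, or a small p. That rate therefore does not apply, and the 6 are listed as descriptions only. In FMT-DSS 4 the astrocyte subunit gene Kcnj16 was at 2.17 FPKM, against 3.88 to 4.21 in the other 3 libraries of its group. In FMT-SP 4 the axonal Kcna1 was at 19.3, against 26.7 to 28.1. In FMT-SP 3 Kcnk13, a microglial leak channel, was at 1.53, against 0.660 to 0.668, and Kcnn4 at 0.276, against 0.0140 to 0.0451. The silent subunit Kcng4 was at 6.14 in FMT-CON 1, against 0.752 to 1.57, and at 2.71 in FMT-SP 3, against 0.951 to 1.21. Of the 6, 2 are in libraries numbered 4 and 4 in the 2 libraries with the highest thalamus and ependyma markers, FMT-CON 1 and FMT-SP 3. FMT-SP 3 also had the highest means of choroid plexus and microglia markers (1.59 and 0.36 above the average library). The part of these tissues was not tested.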

How the results depend on the processing

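Adjusted counts of members stayed at 0 in all 3 comparisons under each alternative run, except that choroid plexus and striatum covariates gave 1 in FMT-SP against FMT-DSS. That was Kcne2, with the limit of the straight-line fit given above. The median change of members moved by less than the spread between libraries throughout (0.13, the pooled SD of the members' median deviation). The median changes were themselves smaller than that, at -0.02, 0.08 and 0.06 in the 3 comparisons. A median change that vanished would also have met this limit, so it says little on stability. Counts at an unadjusted p under 0.05 were less stable. In FMT-DSS against FMT-CON (main count 0) they were 14 with covariates, 5 without a filter, 4 with the replicate block, 2 with a filter of 0.1 FPKM, and 1 with each of median-ratio rescaling, quantile normalization, array weights and the loss of FMT-DSS 2 and 4. In FMT-SP against FMT-DSS (main count 3) they were 17 with covariates, 7 without a filter, 7 with the replicate block, 5 with a filter of 0.1 FPKM and 5 with array weights. In FMT-SP against FMT-CON (main count 0) they were 6 with array weights, 2 without a filter and 1 with covariates. With covariates the counts rose over all 12559 tested genes too. They were 1705, 2245 and 130 in the 3 comparisons, against 510, 314 and 45 in the main fit. With the replicate block 885 genes (7.05%) were under 0.05 in FMT-SP against FMT-DSS. For the other counts in this paragraph no share over all genes is given, so they are not results about the members in particular. Leaving out 1 library at a time gave 0 to 3, 0 to 9 and 0 to 2 in the 3 comparisons. The lowest and highest in FMT-SP against FMT-DSS came without FMT-SP 2 and without FMT-DSS 1, and it was 1 without FMT-CON 3, FMT-DSS 4 or FMT-SP 1. The F test of the library number (14 members) gave 8 without a filter, 0 without the libraries numbered 4, and 2 to 19 with 1 library left out: 7 without FMT-CON 2, 3 without FMT-CON 4, 2 without FMT-DSS 4 and 4 without FMT-SP 4. Of the named changes, 1 reversed: Kcna6 in FMT-DSS against FMT-CON, to 0.0134 without FMT-DSS 2 and 4, the libraries where it was lowest. The cause was not tested.

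The replicate block changed no adjusted call. Outside FMT-SP against FMT-DSS the numbers were not taken as pairs: same-numbered libraries correlated at 0.18, 0.24, 0.0075 and 0.72 for numbers 1 to 4 between FMT-DSS and FMT-CON, and at -0.33, 0.53, -0.45 and 0.84 between FMT-SP and FMT-CON. Depth limits the members below 1 FPKM, and 4 libraries a group limit the rest.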
